A study of Mus musculus with 6 samples.

Results

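The Slc25 family of mitochondrial carriers was followed in the posterior eye of mouse embryos that lack Oa1 and in wild-type (WT) embryos. Members were chosen by name, not by level: every probe set whose single gene symbol in the platform's annotation was Slc25a followed by a number. That gave 93 of the 45101 probe sets on the array and 44 of the 18194 genes with a single symbol. Each gene was represented by its brightest probe set over all arrays, and all 5 probe sets of Slc25a29 were followed. The family came into view because 1 probe set of Slc25a29 differed between the genotypes in these same arrays, so the family was picked on that contrast, and the contrast is described here and not tested.

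Oa1 is the older name of Gpr143, whose product is a receptor on the melanosomes of pigment cells. The data comprise 3 WT and 3 Oa1-/- samples at embryonic day 15.5, each from 1 pregnant female and made by pooling the eyes of 6 of its embryos. Per the labels the anterior segments had been dissected off and RNA was taken from the posterior segments, which hold the neural retina, pigment epithelium and adjoining tissue together. In such bulk tissue fewer cells of a type and less RNA per cell cannot be told apart. Strain, sex of the embryos and how much of Oa1 was deleted are not stated in the labels.

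Slc25 proteins sit mostly in the inner mitochondrial membrane, where each exchanges or imports a narrow set of solutes between cytosol and matrix. They carry ADP and ATP, phosphate, carboxylates, amino acids, iron, glutathione and cofactors. The proteins are encoded in the nucleus and inserted into the inner membrane by the TIM22 import machinery. A few members lie elsewhere, such as Slc25a17 in peroxisomes and Slc25a46 in the outer mitochondrial membrane. The developing retina depends on these carriers for aerobic ATP supply and for the aspartate-glutamate exchange that moves reducing equivalents into mitochondria.

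The targeted gene followed the labels: Gpr143 had 250, 257 and 246 on the WT arrays and 28.3, 39.1 and 6.02 on the Oa1-/- arrays. The median signal of the 6 arrays ran from 93.6 to 129, and the highest bacterial control, a probe set with no target in mouse, read 22.1 to 39.3 and gives the level of the background. The tissue label held for neural retina, whose 5 measured markers of 7 were all bright (Pax6 at 10026 to 11541), and for pigment epithelium except Rpe65, which read at most 11.7. Lens markers were bright on every array, however, with Cryaa at 19548 to 24690 and the 4 lens genes summing to 70119 to 90137, so the samples also held lens RNA. That sum was lowest in WT replicate 1, and its part in the carriers' values was not tested. By genotype, Pax6 read 10026 to 10063 in WT and 10597 to 11541 in Oa1-/-, and Isl1 5474 to 5710 and 5956 to 6050. These 2 of the 5 retina markers were higher on every Oa1-/- array, as were 5.48% of all genes. Of 4 measured periocular mesenchyme markers, 1 was higher and 3 lower in Oa1-/- by mean log2 signal. Twist1 read 671 to 1012 in WT and 571 to 596 in Oa1-/-. The part of these tissues was not tested either. Oa1-/- replicate 1 led the first principal component, and WT replicate 3 the second. The 18S ribosomal RNA control at the 3' end read 1476 to 1988 in WT and 6348, 2618 and 2608 in Oa1-/-. The Y-linked Kdm5d, on its brightest probe set, read 13.5 in WT replicate 3 and 377 to 736 on the other arrays. The Y-linked Eif2s3y read 9.26 there and 406 to 805 on the others, and Uty 14.4 and 189 to 250, each on its brightest probe set. So Y-linked RNA was all but missing from that WT pool alone, and its bearing on the X-linked carriers was not tested. The part of these array differences in any carrier result was not tested.

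No carrier passed the test. Of the 44 genes, 36 had a brightest probe set above the filter on low signal, and 0 of those 36 had an adjusted p below 0.05 in limma, the linear model used here, against 0.0% of all 12900 genes tested by their brightest probe set. The adjusted p ran from 0.985 to 0.998 over the 36. The median log2 change was 0.03 in the carriers (Oa1-/- minus WT, on log2(signal + 16)) and 0.00272 over all 12900 genes. The log2 change was positive in 20 carriers and negative in 16, and it lay within 0.25 of 0 in 32 of the 36, where 88.3% of all genes did. Without Oa1-/- replicate 1 the signs were 18 and 18, and after median centring 23 and 13. At an unadjusted p below 0.05 there was 1 carrier of 36, Slc25a51, against 3.65% of all genes; it was higher in Oa1-/-, as were 1.68% of all genes.

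**Figure D1:**
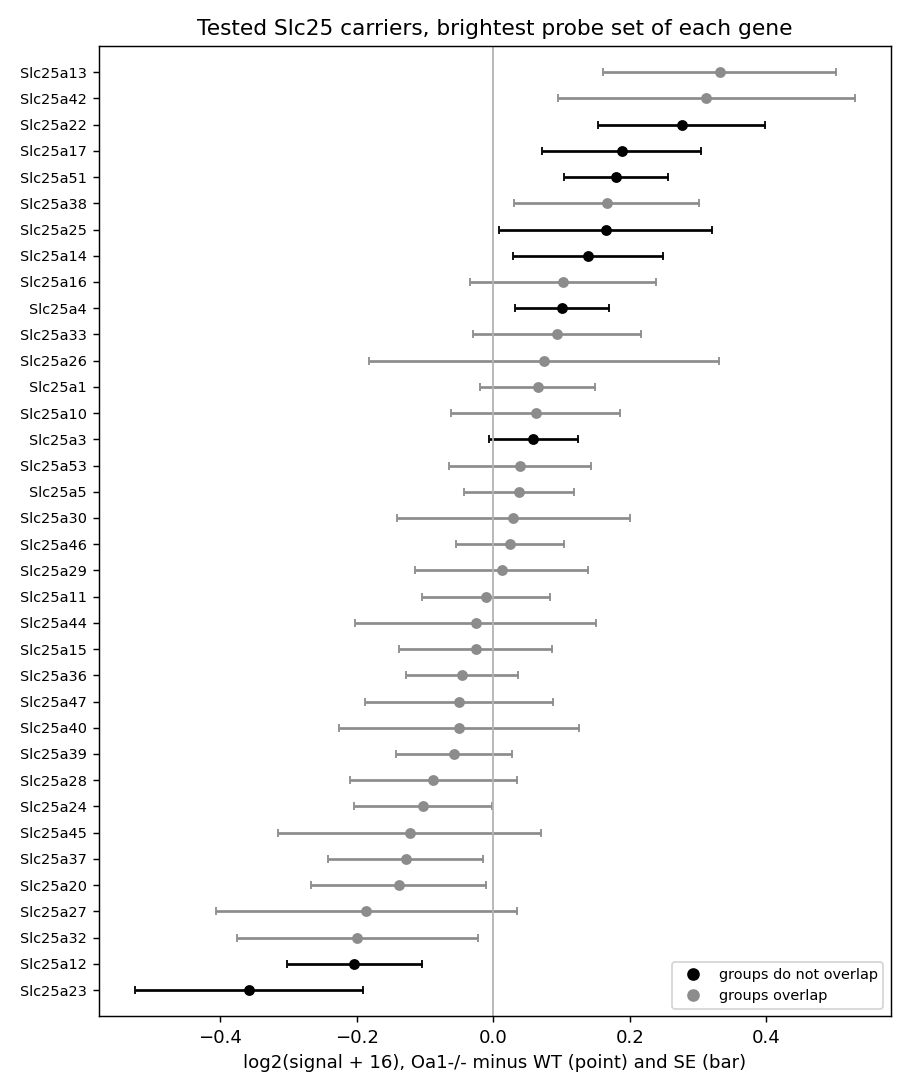
Log2 change in signal (Oa1-/- minus WT, log2(signal + 16) scale, horizontal axis) of the 36 tested carriers, each by its brightest probe set, with bars of 1 SE from limma and n = 3 arrays per genotype. Changes run from −0.36 for Slc25a23 to 0.33 for Slc25a13, and black points mark the 9 genes whose groups of arrays did not overlap.

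The WT and Oa1-/- arrays did not overlap for 9 of the 36 carriers (25%), against 10.8% of all 12900 genes, with 7 carriers higher in Oa1-/- (5.48% of all genes) and 2 lower (5.3%). This count depended on the scaling of the arrays. It was 5 of 36 after quantile normalization, where 10.6% of all genes did not overlap, and 2 of 36 after median centring, where 4.81% did not. Slc25a22 was among them in each of the 3 scalings, Slc25a12, Slc25a14, Slc25a17 and Slc25a23 in the first 2.

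**Figure D2:**
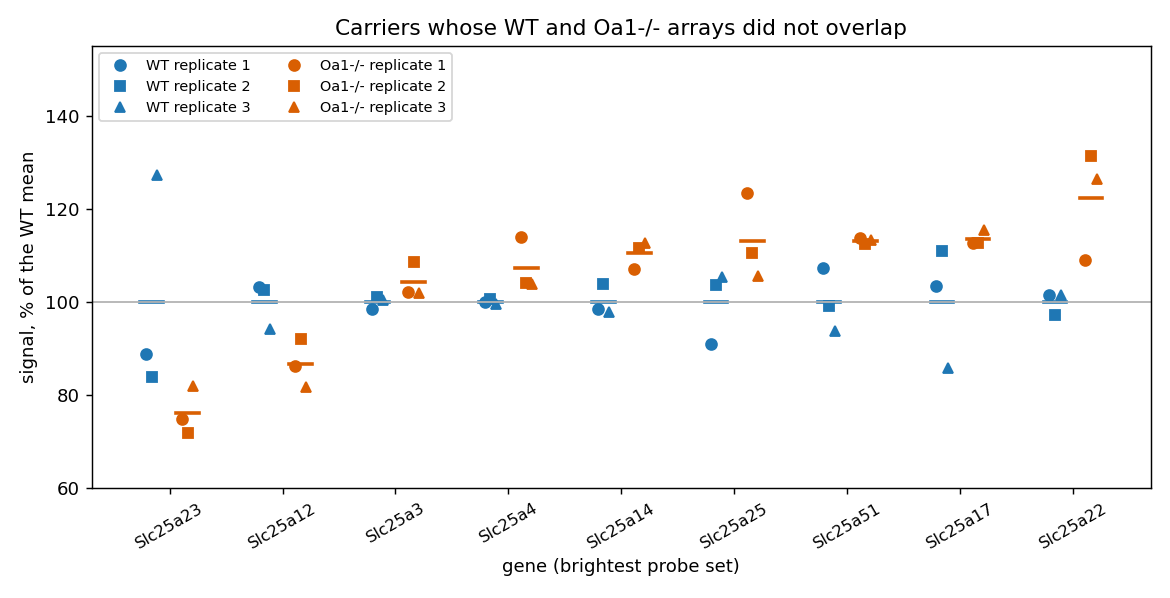
Signal of the 9 carriers whose WT (blue) and Oa1-/- (orange) arrays did not overlap, as a percentage of the gene's WT mean (vertical axis), 1 point per array and a line at each group mean (n = 3). The group means differ by between 4.19% (Slc25a3) and 23.8% (Slc25a23) of the WT mean.

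Slc25a29 carries basic amino acids such as arginine, lysine and ornithine into mitochondria. Its 5 probe sets all passed the filter and differed in what they showed. With 1423981_x_at the WT arrays gave 144, 156 and 169 and the Oa1-/- arrays 49.9, 30.9 and 33.4. Every Oa1-/- array lay below every WT array, and 2 of the 3 lay inside the range of the highest bacterial control. The means were 156 ± 12.7 and 38.1 ± 10.3 (SD, n = 3), a log2 change of −1.69. With Oa1-/- values this near the background the size of this change is uncertain. It ran from −2.04 to −1.11 over the alternatives, given below, that kept this probe set. With 1 array left out at a time the change ran from −1.84 to −1.59. That range describes the arrays on which the family was picked and is no test.

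The other 4 probe sets of Slc25a29 had groups that overlapped. The brightest, 1438187_at, gave 417, 367 and 398 for WT against 366, 393 and 435 for Oa1-/-. The probe set 1438188_x_at, designed on the same accession, read 336, 314 and 303 against 279, 314 and 364. Neither pair of means differed by more than 1%, with log2 changes of 0.01 (SE 0.13) and 0.0006 (SE 0.14). The remaining pair was designed on the accession that also gave 1423981_x_at. Of these, 1423980_at gave WT values of 156, 119 and 175 against 132, 119 and 103, a log2 change of −0.29 (SE 0.20). The other, 1423979_a_at, read 134, 113 and 127 against 119, 102 and 117, a log2 change of −0.13 (SE 0.18). So 1 probe set of 3 from the same accession carried the difference. Where their probes lie along the transcript, and whether they also match other transcripts, was not analysed here. Probe sets with the suffix _x_at were left out of the alternative limited to probe sets of 1 transcript group.

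**Figure D3:**
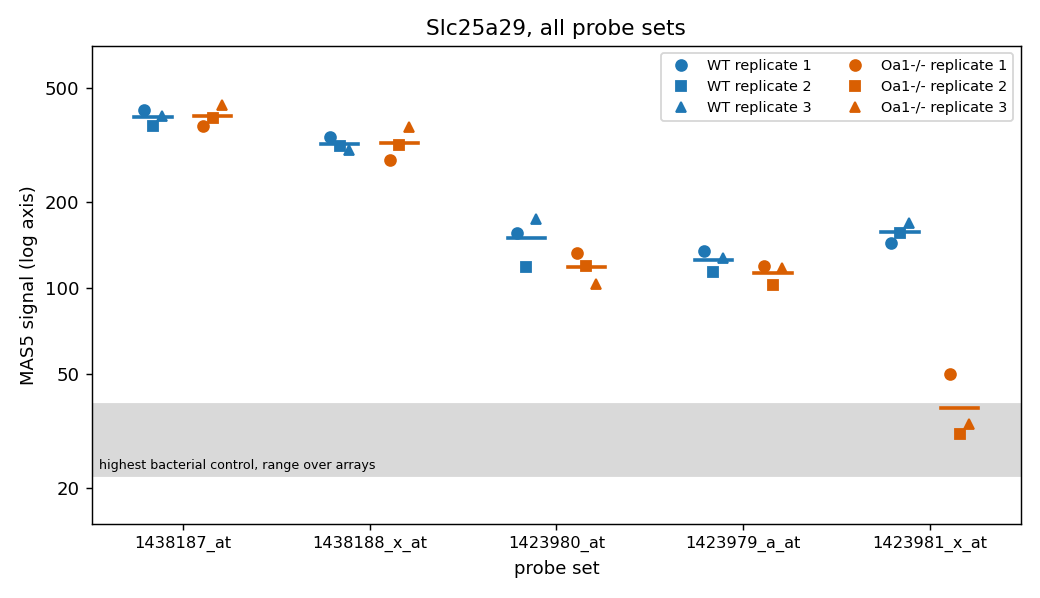
MAS5 signal (log axis) of the 5 probe sets of Slc25a29 on each WT (blue) and Oa1-/- (orange) array, with a line at the mean of each group (n = 3) and a grey band for the range of the highest bacterial control over the arrays. Only 1423981_x_at separates the genotypes, with Oa1-/- arrays at 30.9 to 49.9 and WT arrays at 144 to 169.

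A disagreement of this size between probe sets of 1 gene was uncommon on these arrays, which is a description, since the same contrast led to the choice of the family. The log2 changes of the Slc25a29 probe sets spanned 1.70, and 4 of the 5976 genes with at least 2 tested probe sets (0.0669%), Slc25a29 included, spanned as much. The median span was 0.20 over all those genes and 0.27 over the 17 carriers among them. Next to Slc25a29 came Slc25a26 at 0.48, Slc25a51 at 0.47 and Slc25a39 at 0.46. All tested probe sets had 1 sign in 4 of the 17 carriers (23.5%), Slc25a4, Slc25a10, Slc25a46 and Slc25a53, and in 45.6% of all genes with at least 2. Signs and spans depend on how many probe sets a gene has, up to 8 in the carriers (Slc25a5). The comparisons with all genes were not matched for that number.

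**Figure D4:**
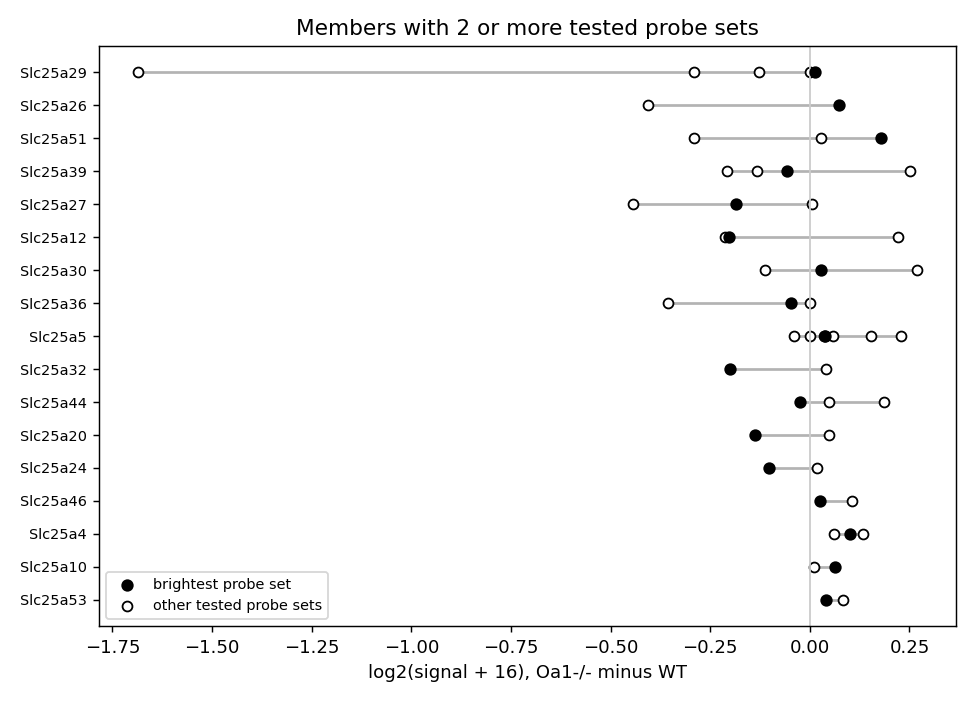
Log2 change in signal (Oa1-/- minus WT, horizontal axis) of every tested probe set of the 17 carriers with at least 2, filled for the brightest and open for the others, joined by a line per gene. The line of Slc25a29 spans 1.70, and that of Slc25a26, the next widest, 0.48.

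The sequence upstream of Slc25a29 is shown with that of 2 other carriers, to set the start of the gene whose probe sets disagree beside 1 gene with a higher and 1 with a lower Oa1-/- mean. Windows run from 250 bases before to 50 bases after the annotated start (RefSeq, GRCm38.p6, written 5′ to 3′ along the gene), and capitals mark the CCAAT box and the GC box (GGGCGG) on either strand. All lie on the minus strand, at chr12:108835827-108836126 for Slc25a29, chr8:46211013-46211312 for Slc25a4 and chr2:71367706-71368005 for Slc25a12. Slc25a29 had 1 annotated window, and which transcript start each of its 5 probe sets reads was not analysed.
Slc25a29: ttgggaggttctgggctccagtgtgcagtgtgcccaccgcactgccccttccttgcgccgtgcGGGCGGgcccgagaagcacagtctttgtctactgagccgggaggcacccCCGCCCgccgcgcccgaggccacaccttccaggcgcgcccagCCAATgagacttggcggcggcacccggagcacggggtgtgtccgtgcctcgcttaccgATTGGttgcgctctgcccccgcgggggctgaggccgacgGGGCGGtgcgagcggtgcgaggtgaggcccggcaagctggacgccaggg
Slc25a4: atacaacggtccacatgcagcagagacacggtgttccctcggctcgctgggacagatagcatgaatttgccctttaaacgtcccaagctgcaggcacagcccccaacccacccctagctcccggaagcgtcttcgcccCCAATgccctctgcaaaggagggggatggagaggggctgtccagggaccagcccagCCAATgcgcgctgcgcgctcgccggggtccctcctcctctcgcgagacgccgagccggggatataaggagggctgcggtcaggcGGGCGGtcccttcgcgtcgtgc
Slc25a12: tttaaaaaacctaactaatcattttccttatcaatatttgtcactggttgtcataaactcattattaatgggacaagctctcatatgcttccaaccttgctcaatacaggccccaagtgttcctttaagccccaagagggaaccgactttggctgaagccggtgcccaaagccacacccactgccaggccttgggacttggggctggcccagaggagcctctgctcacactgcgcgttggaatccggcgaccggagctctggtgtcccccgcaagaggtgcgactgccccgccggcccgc
The window of Slc25a29 held 3 GC boxes and 2 CCAAT boxes, that of Slc25a4 held 1 and 2, and that of Slc25a12 held 0 of either. Slc25a23, which also read lower on every Oa1-/- array, had 2 GC boxes and 1 CCAAT box in each of its windows. A link between these boxes and the direction of change was not tested.

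GC boxes were common upstream of the family. Of 44 carriers, 34 had a window, some several, and of their 43 windows 37 held a GC box (86.0%), against 35.7% of all 32851 windows and 46.2% of the 21262 windows of protein-coding genes. A CCAAT box was in 21 of 43 (48.8%, against 37.4% of all windows and 38.2% of protein-coding windows, the order used below). The E box CACGTG, the same on both strands, was in 8 (18.6% against 7.15% and 7.84%), and the E box CATGTG in 3 (6.98% against 14.2% and 11.5%). The ETS core CCGGAAG was in 7 (16.3% against 8.86% and 11.6%) and the TATA box TATAAA in 1 (2.33% against 13.6% and 12.6%). AAGGTCA, the element of oestrogen-related receptors, was in 1 (2.33% against 4.72% and 4.08%). The palindrome of the factor NRF1 was in 0 of 43 (0.971% and 1.33%). Both strands were searched for each motif, matches may overlap, and windows of 1 gene can overlap. The median GC content was 59.7% in the carriers' windows, 52.7% in all and 56.3% in protein-coding windows, so these counts describe letters and not binding.

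The ADP/ATP and phosphate carriers supply the matrix with the substrates of ATP synthesis. Slc25a3, the phosphate carrier, gave WT signals of 12152, 12472 and 12371 and Oa1-/- signals of 12595, 13394 and 12555. Slc25a4, the ADP/ATP carrier typical of heart and muscle, read 12110, 12205 and 12058 against 13818, 12624 and 12596. For both genes the lowest Oa1-/- array lay just above the highest WT array, and the log2 changes were 0.06 (SE 0.07) and 0.10 (SE 0.07). The adjusted p was 0.985 for each in limma, and without Oa1-/- replicate 1, where 18S read highest, the change of Slc25a4 was 0.06. Both other tested probe sets of Slc25a4 also had a higher Oa1-/- mean, but with groups that overlapped. The summed signal of 6 skeletal muscle markers ran from 3073 to 9522 over the WT arrays, where Slc25a4 read 12058 to 12205, and it was highest on Oa1-/- replicate 1 (11006), where Slc25a4 was highest too. The part of muscle in its values was not tested.

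Slc25a5, the X-linked ADP/ATP carrier of proliferating tissue, overlapped between the genotypes, with WT arrays at 6884, 6651 and 6810 and Oa1-/- arrays at 7558, 7007 and 6366. Its log2 change was 0.04 (SE 0.08), and its 8 probe sets lay between −0.04 and 0.23. The sign turned after quantile normalization (−0.0021) and without Oa1-/- replicate 1 (−0.02). Slc25a31, the ADP/ATP carrier of testis, read at most 22.9 on any array, below the highest bacterial control value of 39.3.

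The ATP-Mg/phosphate carriers, which set the adenine nucleotide content of the matrix and respond to calcium, had changes of both signs. Slc25a23 had 512, 483 and 734 on the WT arrays and 432, 414 and 472 on the Oa1-/- arrays, the most negative change of any tested carrier by its brightest probe set (log2 −0.36, SE 0.17). WT replicate 3 stood well above the other arrays, and without it the change was −0.18. Slc25a25 read 162, 185 and 188 against 220, 197 and 188 (log2 0.16, SE 0.16), its groups apart by less than 1 unit of signal. Slc25a24 had a log2 change of −0.10, with groups that overlapped, and Slc25a41 read at most 23.2. Adjusted p was 0.985 for each of the 3 tested.

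The aspartate-glutamate carriers belong to the malate-aspartate shuttle. Slc25a12, the isoform of brain, retina and muscle, gave WT signals of 847, 841 and 772 and Oa1-/- signals of 706, 754 and 670. All 3 Oa1-/- arrays lay below the WT arrays, with a log2 change of −0.20 (SE 0.10), and limma gave an adjusted p of 0.985. A second Slc25a12 probe set, 1436440_at, had a change of 0.22 and 1444489_at one of −0.21, both with groups that overlapped. Slc25a13, the isoform of liver, read 316, 227 and 264 against 349, 291 and 386, the most positive change of any tested carrier (0.33, SE 0.17). Its groups overlapped, and the change ran from 0.22 to 0.45 with 1 array left out.

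Slc25a22, a glutamate and proton symporter known for epilepsy when mutated, had 397, 380 and 397 on the WT arrays and 426, 514 and 495 on the Oa1-/- arrays. The WT arrays were close together and all Oa1-/- arrays higher, by a log2 change of 0.28 (SE 0.12). In limma its unadjusted p was 0.0517 and its adjusted p 0.985. The change ran from 0.22 to 0.35 with 1 array left out. Slc25a18, the glutamate carrier of astrocytes, was not tested, since it read 27.4 to 85.1. Of 5 measured shuttle enzymes by their brightest probe sets, 0 passed the test and 3 had a positive change. Mdh1 had 0.17 and Mdh2 0.11, and each had 0.07 without WT replicate 1.

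Carriers of basic amino acids other than Slc25a29 showed little. Slc25a15, the ornithine carrier of the urea cycle, gave WT signals of 874, 869 and 797 and Oa1-/- signals of 925, 843 and 734, a log2 change of −0.03 (SE 0.11) that turned to 0.0052 after median centring. Slc25a2, the other ornithine carrier, was not tested and read 20.7 to 67.2. Genes that make or use arginine and ornithine were taken as the pathway around Slc25a29. Of 18, 15 were measured and 13 tested, with 9 positive and 4 negative changes and a median log2 change of 0.05. In limma 0 of the 13 had an unadjusted p below 0.05, against 3.65% of all genes. Azin1, which protects ornithine decarboxylase, had a log2 change of 0.12 and Nos3, the endothelial nitric oxide synthase, one of 0.20.

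The iron and glutathione carriers were examined with the red cell genes of the pools. Slc25a37 (mitoferrin 1), which feeds iron to haem synthesis, had 871, 1035 and 891 on the WT arrays and 763, 887 and 904 on the Oa1-/- arrays (log2 −0.13, SE 0.11). Slc25a28 (mitoferrin 2) read 791, 818 and 941 against 701, 803 and 897 (−0.09, SE 0.12). Slc25a38, which imports glycine for haem, read 335, 358 and 296 against 403, 343 and 369 (0.17, SE 0.14). The groups overlapped for all 3. The embryonic globin Hbb-y ran from 2752 in WT replicate 3 to 19360 in WT replicate 1, and the haem enzyme Alas2 gave WT signals of 437, 595 and 580 and Oa1-/- signals of 387, 466 and 340 (−0.42, adjusted p = 0.985 in limma). All 5 tested red cell markers had a negative change (4 of 5 after median centring, and 2 of 5 without Oa1-/- replicate 1). Over all genes 50.9% of changes were positive. WT replicate 1 also stood far above the other WT arrays in Hba-x (3132 against 522 and 153) and Hbb-bh1 (257 against 77.3 and 41.3). Signs without that array were not counted, so the shared sign is not read as less red cell RNA in Oa1-/-. The part of red cells in the carriers' values was not tested.

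Slc25a39, a glutathione importer, had 9440, 9593 and 10636 on the WT arrays and 10209, 9573 and 8749 on the Oa1-/- arrays on its brightest probe set (log2 −0.06, SE 0.08). Its probe set 1453111_a_at had a change of 0.25 and 1456176_x_at one of −0.21, so its probe sets gave both directions. Slc25a40, its close relative, read 629, 476 and 388 against 448, 516 and 452 (−0.05, SE 0.18). Neither gene separated the genotypes.

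Among the carriers of cofactors and nucleotides, 6 of 8 had a positive and 2 a negative change. Slc25a51, which brings NAD into mitochondria, gave WT signals of 4027, 3719 and 3520 and Oa1-/- signals of 4270, 4222 and 4255. The Oa1-/- arrays were all higher and close together (log2 0.18, SE 0.08, unadjusted p 0.0440, adjusted p 0.985 in limma). The mean over its 3 probe sets had a change of −0.03. Among these, 1427425_at read 284 on Oa1-/- replicate 1 and 545 to 627 on the other arrays. Slc25a17, the peroxisomal carrier of coenzyme A and nucleotides, read 723, 775 and 599 against 788, 788 and 807. Its log2 change was 0.19 (SE 0.12) and 0.08 without WT replicate 3.

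Slc25a26, the importer of S-adenosylmethionine, had the widest relative spread within a group of any tested carrier, with WT arrays at 158, 263 and 182 (SD 27.5% of the mean) and Oa1-/- arrays at 147, 235 and 258. Its dimmer probe set 1453886_a_at was tighter, at 98.5, 98.1 and 103 against 70.9, 76.5 and 67.2, with every Oa1-/- array lower (log2 −0.41, SE 0.19, adjusted p 0.985 in limma). Slc25a36, a pyrimidine nucleotide carrier, had a change of −0.05 on its brightest probe set. On 1419656_at it read 420, 363 and 339 against 273, 294 and 296 (−0.36, SE 0.14), with every Oa1-/- array lower. In limma its unadjusted p was 0.0294 and its adjusted p 0.985. Slc25a42, which carries coenzyme A, read 184, 148 and 131 against 150, 197 and 244 (0.31, SE 0.22). Its groups overlapped on these values but not after median centring. Slc25a16 (0.10), Slc25a33 (0.09) and Slc25a32 (−0.20) overlapped too, and adjusted p was 0.985 for each.

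Relatives of the uncoupling proteins included the X-linked Slc25a14, with WT signals of 409, 432 and 407 against 446, 464 and 469. All Oa1-/- arrays were higher, with a log2 change of 0.14 (SE 0.11) and adjusted p of 0.985 in limma, and by 0.12 without WT replicate 3. Slc25a53, also X-linked but counted here among members with no settled substrate, read 618, 642 and 613 against 688, 592 and 651 (0.04, SE 0.10). Its change was −0.00880 without Oa1-/- replicate 1. Slc25a27 and Slc25a30 overlapped on their brightest probe sets, at −0.19 (−0.01 without Oa1-/- replicate 1) and 0.03, while 1420835_at of Slc25a30 read 172, 181 and 171 against 223, 199 and 220 (0.27, SE 0.15).

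The carriers of carboxylates, acylcarnitine and branched-chain amino acids differed little between the genotypes. Slc25a1, the citrate carrier, read 1095 to 1168 in WT and 1129 to 1209 in Oa1-/- (log2 0.07). Slc25a10, for dicarboxylates, had a change of 0.06, Slc25a11, for oxoglutarate and malate, one of −0.01, and Slc25a20, which imports acylcarnitines for fatty acid oxidation, one of −0.14. Slc25a44, for branched-chain amino acids, had −0.03, and the outer membrane protein Slc25a46, which takes part in mitochondrial dynamics, 0.02. The groups overlapped in every one of these 6 genes. Members with no settled substrate had changes of 0.04 (Slc25a53, above), −0.12 (Slc25a45) and −0.05 (Slc25a47), and Slc25a34, Slc25a35, Slc25a48 and Slc25a54 did not pass the filter. Of the 8 carriers that were not tested, 4 (Slc25a31, Slc25a41, Slc25a48 and Slc25a54) read below 39.3 on every array.

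The machinery that inserts carriers into the membrane was looked at beside them. Of 13 import genes, all tested, 12 read higher and 1 lower in Oa1-/- by their means, the median log2 change being 0.11, while 50.9% of all genes were positive. None passed the adjusted threshold, and 1 of the 13 had an unadjusted p below 0.05, against 3.65% of all genes. That was Timm10, a chaperone of the intermembrane space, which had 1358, 1356 and 1417 on the WT arrays and 1846, 1664 and 1657 on the Oa1-/- arrays (log2 0.32, unadjusted p 0.00476, adjusted p 0.985 in limma). Every Oa1-/- array was higher, and without Oa1-/- replicate 1 the change was 0.27. On the values as deposited, groups lay apart in 3 of the 13, all higher in Oa1-/-, against 5.48% of all genes. Tomm40, the outer membrane channel, had a log2 change of 0.25, and 0.15 without WT replicate 3. The summed signal of the 13 genes was 32285 to 32621 in WT and 36906, 33661 and 33217 in Oa1-/-, highest on Oa1-/- replicate 1. Without that array 8 of the 13 were positive and the median was 0.04. The count was 11 after quantile normalization and 13 after median centring.

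Other mitochondrial transport genes, 10 measured of 13, had 8 positive and 2 negative changes and a median of 0.06, and 5 of each sign without Oa1-/- replicate 1. Mpc1, a subunit of the pyruvate carrier, gave WT signals of 1181, 1364 and 1149 and Oa1-/- signals of 1766, 1395 and 1374 (log2 0.29, unadjusted p 0.0460), and 0.17 without Oa1-/- replicate 1. Vdac2, a channel of the outer membrane, had 0.12. Of the relatives of Slc25 that carry other names, 4 of 5 were measured and 3 tested, and Mtch2 had a change of 0.16. Ucp3 had one of −0.21, which was −0.0024 without Oa1-/- replicate 1. Regulators of mitochondrial biogenesis had 5 positive and 5 negative changes of 10, with Tfam at 0.15 and Tfb2m at −0.25. In these lists 0 genes passed the adjusted threshold in limma.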

How the data were processed

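The deposited table holds 1 linear signal intensity for each probe set on each array. The submitters' processing notes name MAS5, without a version, as what the authors used. Each array had been scaled, since the mean after trimming both tails was 500.002 on every array. No detection calls were used. Probe sets were named by the platform's annotation table, and 44 of the 44 carrier symbols were the same in RefSeq (GRCm38.p6).

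Signals were taken as log2(signal + 16), without further scaling. The 64 control probe sets and those with a mean log2 value at or under the 40th percentile were left out, which kept 27029 probe sets. Genotypes were compared over the 6 arrays with limma 3.58.1 in R 4.3.3 (lmFit, eBayes with trend, no covariate), two-sided, with Benjamini-Hochberg adjustment over all 27029 and a threshold of 0.05. Changes of dim probe sets are understated on this scale. The code was tested on simulated data. The arrays' number, 3 per genotype, limits the precision.

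Text names every Slc25a29 probe set, carriers whose groups did not overlap or with an unadjusted p below 0.05, chosen substrate classes, X-linked members, the carrier with the widest spread, and the 2 smallest p per pathway list. The members and lists were chosen with earlier results of these data known. The labels give the replicate only as a number, so replicates were not used as pairs, and a block by number was an alternative. Deviations of same-numbered arrays from their group means correlated at −0.29, 0.15 and −0.25. The highest value was 0.37, for WT replicate 3 with Oa1-/- replicate 1. Deviations from the mean of 3 arrays constrain each other, so these values do not settle the pairing. Alternatives were pseudocounts of 1 and 64, other filters, scalings, variance settings, array weights, a replicate block, other probe set choices and leaving out arrays. The counts of signs of the lists without single arrays were chosen after seeing the data.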

Additional observations from a re-analysis of the deposited data

How the results depend on the processing

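The count of carriers past the threshold, with 1 value per gene, was 0 under every alternative run. The replicate block left it at 0 with a median of 0.03. Over all probe sets, median centring and array weights gave 2 calls each. With array weights 1 of them was 1423981_x_at of Slc25a29. Its contrast led to the choice of the family, so that call is no test of it. The change of this probe set ran from −2.04 to −1.11 over the alternatives that kept it. The carriers' median was 0.0582 with median centring, which moved the median of all probe sets from −0.01 to 0.0211, was −0.0005 with array weights, and ran from 0.0002 to 0.0363 with 1 array left out. Groups did not overlap for 9 carriers as reported, for 5 with quantile normalization and for 2 with median centring. With the filter at the 70th percentile it was 8 of 25 carriers (10.7% of all genes), and with no filter 10 of 44 (10.6%). Among probe sets of 1 transcript group it was 7 of 29 (10.7%). The count ran from 11 to 13 with 1 array left out, where 18.7% to 21.9% of all genes did not overlap, and was 18 without WT replicate 3 and Oa1-/- replicate 1 (chosen after seeing the data), where fewer arrays leave groups apart in 34.5% of all genes. 

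The sign held under every alternative for 17 of the 36 tested carriers and turned for 19, none of them with a log2 change over 0.18. Quantile normalization gave Slc25a5 −0.0021 and Slc25a44 0.0109, and median centring gave Slc25a11 0.0206, Slc25a15 0.0052 and Slc25a44 0.0055. Array weights gave Slc25a16 −0.043, Slc25a33 −0.0233, Slc25a40 0.0329, Slc25a46 −0.0698, Slc25a47 0.01 and Slc25a53 −0.0559. Averaging all probe sets of a gene gave Slc25a26 −0.1661, Slc25a29 −0.4184, Slc25a44 0.0693 and Slc25a51 −0.0274, and probe sets of 1 transcript group gave Slc25a36 0.0004. Without both arrays named above, Slc25a5 was −0.0187, Slc25a28 0.0759, Slc25a44 0.0896, Slc25a46 −0.038, Slc25a47 0.0984 and Slc25a53 −0.0219. With 1 array, or both of those, left out, changes that turned ran from −0.0218 to 0.1017 (Slc25a5), −0.0364 to 0.1377 (Slc25a10), −0.0881 to 0.0617 (Slc25a11), −0.1449 to 0.0616 (Slc25a15), −0.072 to 0.3027 (Slc25a26), −0.1718 to 0.0759 (Slc25a28), −0.0914 to 0.1494 (Slc25a30), −0.1097 to 0.0015 (Slc25a39), −0.2104 to 0.1266 (Slc25a40), −0.1964 to 0.0896 (Slc25a44), −0.2143 to 0.004 (Slc25a45), −0.038 to 0.07 (Slc25a46), −0.1284 to 0.0984 (Slc25a47) and −0.0219 to 0.097 (Slc25a53). For Slc25a29 they ran from −0.051 to 0.0753 on 1438187_at and from −0.0942 to 0.0885 on 1438188_x_at. The cause of these turns was not tested.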
